A study of Danio rerio with 8 samples.

Results

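The genes of oxidative phosphorylation were compared between sorted sp7-GFP cells of zebrafish larvae with weak (P1) and strong (P2) fluorescence. Members were taken from the deposited table by symbol. Nuclear members begin with nduf, sdh, uqcr, cox and a digit, or atp5, and mitochondrial members begin with mt-nd, mt-co, mt-atp or mt-cyb. The rule gave 124 of 32520 gene rows, 111 in the nuclear and 13 in the mitochondrial genome. A further 4 rows with capital symbols (COX7A2, NDUFB1 and 2 rows named COX5B) fell outside the rule by their spelling.

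Oxidative phosphorylation is carried out in the inner mitochondrial membrane. Complex I takes electrons from NADH and complex II from succinate, complex III passes them to cytochrome c, and complex IV passes them to oxygen. Complexes I, III and IV pump protons, and complex V, the ATP synthase, uses the resulting gradient to make ATP. The mitochondrial genome encodes a small set of hydrophobic core subunits of complexes I, III, IV and V, while all other subunits and all of complex II come from the nucleus. Many nuclear subunits have no counterpart in the bacterial enzymes and are called supernumerary, and several subunits of complex IV exist as tissue-specific isoforms. Bone-forming cells are known to use both glycolysis and respiration.

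All 8 libraries came from AB strain larvae at 4 dpf of the line ulg071 Tg, Tg(sp7:sp7-GFP), in which GFP is inserted in the endogenous sp7 gene. The larvae were transgenic offspring of a heterozygous carrier and a wt parent, and larvae were pooled for dissociation before sorting. There were 5 libraries of low (P1) and 3 of high (P2) fluorescence, numbered 1, 2, 3, 5 and 6 and 1, 2 and 4, and no GFP-negative library was analysed here. The cDNA came from a low-input SMART-Seq protocol with PCR and no molecular identifiers, so floors stated for 0 reads cover counting error only. Labels do not say which libraries came from separate clutches, so p-values measure the spread between these libraries, which may be partly technical.

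Recovered reads ranged from 7510312 to 13034333 per library. The osteoblast markers followed the sort, with 8 of 9 higher in P2 and a summed level of 366 to 1384 normalized read counts in P1 and 45914 to 65083 in P2. Markers of other cells were also present: those of skeletal muscle summed to 44373 and 60149 in P1 replicates 1 and 6 and to 31488 in P2 replicate 2, but only to between 2381 and 3554 in the other P1 libraries and to at most 207 in P2 replicates 1 and 4. Erythroid markers summed to 2096 in P1 replicate 5 and to between 13.5 and 469 elsewhere. For ionocytes, the mitochondrion-rich cells of the skin, the sums were 42.1 to 452 in P1 and 12 to 58.0 in P2, with 6 of 7 tested rows below 0 and 1 called, the sodium pump gene atp1a1a.2, at 6.86 to 391 in P1 and 3.05, 0 and 0 in P2 (log2 fold change -6.07, adjusted p 0.00252 by limma). Further markers were lower in P2: 4 of 5 tested for macrophages (summed level of at least 185 in P1 and 14.3 to 72.6 in P2), 3 of 6 for endothelium (368 to 620 and 138 to 317), 3 of 6 for keratinocytes (1687 to 17851 and 329 to 1732), 3 of 5 for neurons (163 to 988 and 42.1 to 197) and the pituitary gene prl (181 to 667 and at most 0.339). These marker levels differed between the populations beside the members, and their part in the members' values was not tested. In sorted pools, fewer cells of a type and less RNA per cell cannot be told apart.

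The share of reads in the members was measured first, because it compares both genomes within a library. Mitochondrial members took 5.51%, 3.74%, 3.76%, 8.22% and 4.47% of all reads in P1 replicates 1, 2, 3, 5 and 6, and 2.16%, 5.20% and 1.80% in P2 replicates 1, 2 and 4. For the nuclear members the shares were 1.37%, 0.906%, 0.997%, 1.64% and 0.918% in P1 and 0.705%, 1.08% and 0.543% in P2. In both genomes P1 replicates 1 and 5 stood highest within P1, P2 replicates 1 and 4 lay below every P1 library, and P2 replicate 2 lay within the P1 range, so the groups overlapped.

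**Figure D1:**
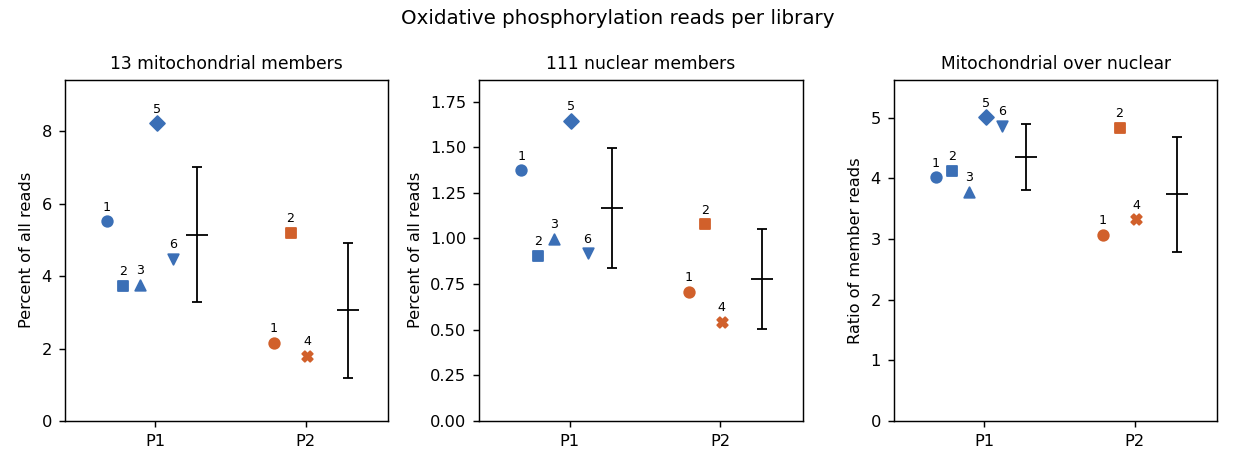
Percent of all reads in the 13 mitochondrial members (left) and the 111 nuclear members (middle), and the ratio between them (right), for each P1 (blue) and P2 (orange) library, labelled by replicate number, with mean and SD as bars. P2 replicates 1 and 4 lie below all 5 P1 libraries in all 3 panels, and P2 replicate 2 lies among them.

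Mitochondrial member reads outnumbered nuclear ones 4.02, 4.12, 3.78, 5.00 and 4.86 times in P1 and 3.06, 4.83 and 3.32 times in P2. The means were 4.36 ± 0.544 (SD, n = 5) and 3.74 ± 0.953 (SD, n = 3), a difference of -0.62 that lay within the P2 spread. Without P2 replicate 2 the difference was -1.16. The ratio within a complex depended on the complex. In complex IV, mitochondrial exceeded nuclear normalized counts 11.6 to 14.0 times in P1 and 9.90, 15.9 and 12.1 times in P2. For complex V it was 0.381 to 0.873 in P1 and 0.321, 0.421 and 0.240 in P2, with P2 replicates 1 and 4 below every P1 library and P2 replicate 2 inside the P1 range. These are ratios of reads, not of molecules per gene, since no gene lengths were used.

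Summed over the nuclear subunits of a complex, the mean level of P1 exceeded that of P2 by 1.66 times in complex I, 1.41 in II, 1.32 in III, 1.79 in IV and 1.36 in V. For complex I the sums were 10999, 5874, 6289, 10052 and 5883 normalized read counts in P1 and 3800, 7579 and 2788 in P2. For the mitochondrial subunits the same quotient of means was 1.60 in complex I, 1.24 in III, 1.75 in IV and 2.30 in V. In complex IV they summed to 127303, 58484, 64624, 144872 and 83451 in P1 and to 37477, 99669 and 27220 in P2. P2 replicate 2 exceeded the lowest P1 library in the sum of every complex and genome, so every complex overlapped.

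A separate mitochondrial row that carries no gene symbol, and is no member, took 14.5% to 28.5% of reads in P1 and 9.97% to 16.8% in P2. With it, all mitochondrial rows together held 21.2% to 35.5% of reads in P1 and 13.2% to 23.0% in P2. In every library this row held more reads than the 13 mitochondrial members together.

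Each gene was then compared between populations with limma on log2(normalized read count + 1). Of the 124 members, 120 passed the filter of 10 reads in 3 libraries, 107 nuclear and all 13 mitochondrial. The other 4, ndufb4, ndufs1, ndufs8b and ndufa4l2b, had at most 1.77 normalized read counts in any library. At an adjusted p under 0.05, 11 members were lower in P2, all nuclear, and 0 were higher. Over all 18475 genes tested, 7.05% were called lower and 7.57% higher. The 11 members are 9.17% of those tested, a share near the background, while for higher calls the members' share was 0 where the background was 7.57%. At an unadjusted p under 0.05, 51 members were lower and 3 higher, where 2896 of the 18475 genes were lower and 2988 higher. The tools edgeR, DESeq2 and voom also called 0 members higher, and over all genes they called 940, 1546 and 1082 higher.

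Below 0 on the log2 scale were 88 of 107 nuclear and 12 of 13 mitochondrial fold changes. Their medians were -0.78 for nuclear and -0.80 for mitochondrial members, against 0.00 over all genes. Among the 5595 genes with a mean of at least 50 normalized read counts the median was 0.21, and among the 80 nuclear members at that level it was -0.90. Groups without overlap were found for 11 nuclear members with P2 below P1 and 2 with P2 above, where 8.82% and 11.8% of all genes had such patterns. Counts and medians depended on single libraries. Without P2 replicate 2, 50 members were called lower and the medians were -1.18 for nuclear and -1.40 for mitochondrial members. Over all genes that fit called 1974 of 18106 lower. Without P2 replicate 4, 1 member was called lower and the medians were -0.46 and -0.43. Over all genes 680 of 18179 were then called lower.

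The libraries within a population also differed across the members together. Of the 107 nuclear members tested, 43 were highest within P1 in replicate 5 and 40 in replicate 1. Replicate 5 was also the lowest P1 library for 24 of them, and replicate 1 for 7. P2 replicate 2 was the highest P2 library for 86. P2 replicate 4 was the lowest P2 library for 85. All 13 mitochondrial members were highest in P2 replicate 2 and lowest in P2 replicate 4 within P2, and 10 of 13 were highest within P1 in replicate 5. With P1 replicates 1 and 5 left out together, 0 members were called, where 513 of all 17309 genes tested were called lower. At an unadjusted p under 0.05, 13 members were lower, and the other tools were not run on these libraries. Reads of 84 cytosolic ribosomal protein rows, which are no members, took 7.69% to 14.5% of reads in P1 and 8.63%, 8.87% and 4.59% in P2, with a median log2 fold change of -0.80 and 0 called (26 lower at an unadjusted p under 0.05, 6 called by DESeq2 and 0 by edgeR or voom). Their part in the members' values was not tested.

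**Figure D2:**
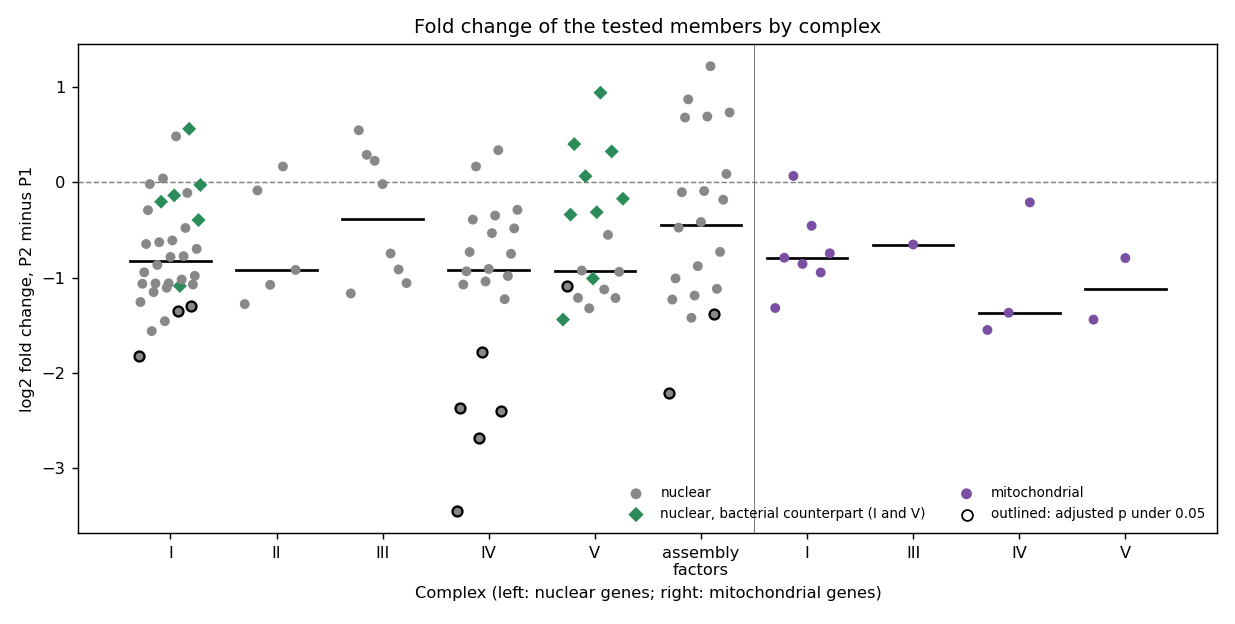
Log2 fold change (P2 minus P1, log2(normalized read count + 1) scale) of the tested members by complex, nuclear genes left of the vertical line and mitochondrial genes right of it. Black bars are medians, green diamonds are nuclear subunits of complexes I and V with a bacterial counterpart, and black outlines mark the 11 members with an adjusted p under 0.05. The 2 ATP synthase inhibitors and cox7a2l are not drawn.

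In complex I, 3 of 34 tested nuclear subunits were called lower in P2. That is 8.82%, near the 7.05% of all genes called lower. By edgeR 2, by DESeq2 8 and by voom 0 of the 34 were called lower. The 3 called by limma are supernumerary subunits of the matrix arm. The level of ndufa7 was 185, 100, 116, 402 and 121 normalized read counts in P1 and 42.1, 96.6 and 21.1 in P2. All P2 libraries lay below all P1 libraries, although P2 replicate 2 came within a few counts of P1 replicate 2. The log2 fold change was -1.83 ± 0.52 (SE) with an adjusted p of 0.0348. The gene ndufa5 was at 409, 222, 238, 431 and 222 in P1 and at 120, 187 and 64.7 in P2, again without overlap (log2 fold change -1.35 ± 0.38, adjusted p 0.0345). For ndufa2 the levels were 127, 82.3, 78.8, 187 and 108 in P1 and 46.5, 66.6 and 28.4 in P2 (-1.29 ± 0.37, adjusted p 0.0366), and the groups were again separate.

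The other 31 tested nuclear subunits of complex I did not pass. In all, 31 of 34 fold changes were below 0, with a median of -0.83. The one with the most reads, ndufb8, a membrane arm subunit, was at 1058, 456, 425, 846 and 431 in P1 and 257, 616 and 146 in P2, so P2 replicate 2 lay inside the P1 range (-1.06 ± 0.46, adjusted p 0.134). The row NDUFB1, outside the rule by its capitals, was at 99.7 to 256 in P1 and at 81.8, 94.2 and 56.2 in P2 (-1.08 ± 0.36, adjusted p 0.0606), without overlap.

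Complex II, the only complex without mitochondrial genes, had 0 of 5 subunits called in either direction, with 1 lower at an unadjusted p under 0.05, and 0 by edgeR, DESeq2 or voom. Its median log2 fold change was -0.92. The membrane anchor sdhc was at 347, 154, 158, 406 and 156 in P1 and 68.2, 217 and 77.0 in P2 (-1.08 ± 0.45, adjusted p 0.126). The second anchor gene sdhdb was at 285, 116, 141, 232 and 106 in P1 and 57.0, 194 and 56.5 in P2 (-0.92 ± 0.46, adjusted p 0.186), with P2 replicate 2 inside the P1 range in both genes. Its paralog sdhda was hardly seen, at 0.556 to 5.75 in P1 and 2.04, 0 and 0.878 in P2 (-1.28 ± 0.62, adjusted p 0.175). This gene met the filter only through P1. The complex II median of -0.92 counts sdhda, the lowest of the 5 fold changes, and is less negative without it. The catalytic subunits had fold changes nearer 0, none of which passed: sdha, the flavoprotein that binds succinate, was at 84.1 to 151 in P1 and at 153, 100 and 83.1 in P2 (-0.09 ± 0.31), and the iron-sulphur subunit sdhb was at 66.3 to 143 in P1 and 81.4, 190 and 90.7 in P2 (0.17 ± 0.35). Without P2 replicate 2 the log2 fold changes were -0.03 for sdha and -0.21 for sdhb.

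For complex III, 0 of 8 nuclear subunits were called, 2 were lower at an unadjusted p under 0.05 (0 called by edgeR or voom, 2 by DESeq2), and the median was -0.38. The small subunit uqcrq was at 492, 242, 276, 713 and 384 in P1 and 193, 238 and 112 in P2. These groups did not overlap, but the adjusted p was 0.0586 (-1.17 ± 0.38). The small subunit uqcr10 was at 155 to 455 in P1 and 141, 163 and 80.8 in P2 (-1.06 ± 0.37, adjusted p 0.073), and the hinge protein uqcrh at 481 to 1509 in P1 and 357, 943 and 212 in P2 (-0.92 ± 0.49, adjusted p 0.215). The larger subunits had fold changes near or above 0. The core protein uqcrc1 was at 168, 302, 209, 174 and 170 in P1 and 224, 513 and 215 in P2 (0.55 ± 0.34, adjusted p 0.295). The core protein uqcrc2b was at 107 to 125 in P1 and 145, 154 and 128 in P2, all P2 libraries above all P1 libraries by a small margin (0.29 ± 0.25, adjusted p 0.453). The Rieske iron-sulphur protein uqcrfs1 had 0.23 ± 0.29 and uqcrc2a -0.02 ± 0.32. Without P2 replicate 2 the log2 fold changes were 0.14 for uqcrc1, 0.23 for uqcrc2b and -0.07 for uqcrfs1.

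In the main fit, complex IV (cytochrome c oxidase) held most of the subunit calls. It had 5 of 20 tested nuclear subunits lower in P2 and 18 of 20 fold changes below 0. The median was -0.92. Of the 5, cox7a1, cox8b and cox6a2 correspond to isoforms known from heart and skeletal muscle of mammals, and cox5b2 is a paralog of the subunit Vb gene. The fifth, ndufa4, was named for complex I but is known as a subunit of complex IV in mammals. All 5 had few reads, with at most 68.7 normalized read counts in any library. The lowest library held 5 reads of cox8b, 1 of cox7a1 and 0 of cox6a2 and cox5b2. These genes met the filter of 10 reads in 3 libraries only through P1. With 10 reads required in every library they were not tested, while limma still called ndufa4 (adjusted p 0.0278). Over all genes limma called 7.05% lower. By edgeR 2 and by voom 1 of the 20 tested nuclear subunits were lower, while DESeq2 called 5 of 20 here and 8 of 34 in complex I. Of all 18475 genes, edgeR called 1042 lower, voom 519 and DESeq2 2139.

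The level of cox8b was 39.3, 16.9, 13.7, 21.7 and 34.5 in P1 and 4.41, 6.33 and 1.46 in P2. The lowest P1 library was above the highest P2 library. It fell by 2.40 on the log2 scale (SE 0.51, adjusted p 0.00951). Of the 11 called members cox8b alone passed in all 8 fits that left out 1 library, where the others passed in 1 (atp5md) to 5 (cox5b2 and cox7a1) of them, and its adjusted p-values over all alternatives ran from 6.6e-05 to 0.296. Its broadly expressed counterpart cox8a was at 261 to 469 in P1 and 266, 357 and 155 in P2 (-0.48 ± 0.33, adjusted p 0.335). The ratio of cox8b to cox8a counts within a library was 0.0464 to 0.112 in P1 and 0.00947 to 0.0177 in P2, without overlap.

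The level of cox7a1 was 31.7, 9.82, 20.1, 52.3 and 20.2 in P1 and 3.39, 8.53 and 0.293 in P2, again with every P2 library below every P1 library (-2.68 ± 0.66, adjusted p 0.0201). Its counterpart cox7a2a was at 1337, 300, 427, 1808 and 516 in P1 and 282, 761 and 165 in P2 (-1.07 ± 0.60, adjusted p 0.241), and overlapped. The count ratio of cox7a1 to cox7a2a was 0.0237 to 0.0472 in P1 and 0.0120, 0.0112 and 0.00177 in P2. For cox6a2 the levels were 12.4, 2.22, 11.5, 30.6 and 19.5 in P1 and 3.05, 2.75 and 0 in P2 (-2.37 ± 0.73, adjusted p 0.0471). P1 replicate 2 lay below P2 replicates 1 and 2, so these groups overlapped, and the 0 in P2 replicate 4 allows up to 0.878 normalized read counts. The counterpart cox6a1 was at 122 to 351 in P1 and 132, 170 and 79.3 in P2 (-0.91 ± 0.37, adjusted p 0.114).

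Skeletal muscle markers moved beside these isoforms in part. Within P1, cox8b was highest in replicates 1 and 6, the libraries with the highest muscle marker sums, and replicates 5, 2 and 3 followed in the same order for both. The order of cox7a1 within P1 differed, with replicate 5 highest and replicate 2 lowest. Within P2, cox8b, cox7a1 and the muscle marker sum were all highest in replicate 2 and lowest in replicate 4. Between populations the order did not hold throughout: P2 replicate 2, with 31488 normalized read counts of muscle markers, had 6.33 of cox8b and 8.53 of cox7a1, and P1 replicate 3, with 2381, had 13.7 and 20.1. All 13 muscle marker rows had fold changes below 0, 0 of them called (8 lower at an unadjusted p under 0.05, 1 called by DESeq2 and 0 by edgeR or voom), and the 4 heart muscle rows found summed to at most 50.2 in any library. Without P1 replicates 1 and 6 and P2 replicate 2 the log2 fold changes were -2.31 for cox8b (adjusted p 0.0318), -3.27 for cox7a1 (adjusted p 0.0265) and -2.43 for cox6a2 (adjusted p 0.117), and the muscle marker sums of the remaining libraries were still 2381 to 3554 in P1 and at most 207 in P2. The part of muscle cells in these values was not tested.

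The subunit Vb paralog cox5b2 was at 46.2, 17.0, 22.4, 56.9 and 13 in P1 and 0, 15.1 and 0 in P2 (-3.45 ± 0.85, adjusted p 0.0199). P2 replicate 2 was above P1 replicate 6, so the groups overlapped. In P2 replicates 1 and 4 the count of 0 allows up to 1.02 and 0.878 normalized read counts, and the gene was not called by edgeR (adjusted p 0.157), DESeq2 (0.239) or voom (0.0729). A row named COX5B outside the rule was at 564 to 1130 in P1 and 512, 791 and 253 in P2 (-0.60 ± 0.38, adjusted p 0.295). The level of ndufa4 was 18.4, 21.5, 46.9, 68.7 and 27.6 in P1 and 13.2, 11.6 and 4.10 in P2, without overlap (-1.79 ± 0.51, adjusted p 0.0366), while its relative ndufa4l was at 452 to 764 in P1 and 392, 584 and 348 in P2 (-0.39 ± 0.30, adjusted p 0.388). A further relative, ndufa4l2a, was at most 17.8 in any library and at 0 in P1 replicate 1 (0.34 ± 0.79).

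**Figure D3:**
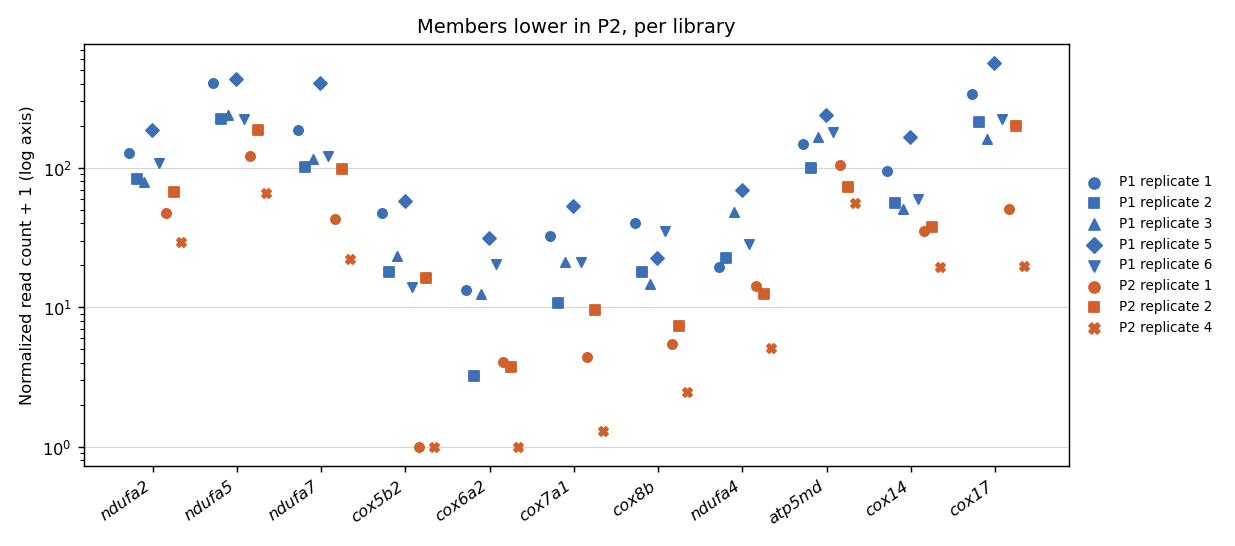
Normalized read count + 1 on a log axis for the 11 members with an adjusted p under 0.05, with P1 libraries in blue and P2 libraries in orange and 1 marker shape per replicate. In 7 of the genes every P2 library is below every P1 library, and in cox5b2, cox6a2, atp5md and cox17 the highest P2 library reaches the lowest P1 library.

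The complex IV subunits with the most reads had fold changes below 0 but did not pass. The first of them, cox7c, was at 1927, 690, 831, 2537 and 935 in P1 and 520, 1038 and 256 in P2 (-1.23 ± 0.51, adjusted p 0.119). Of the genes for subunit IV, cox4i1 was at 544 to 1190 in P1 and 514, 803 and 308 in P2 (-0.73 ± 0.36, adjusted p 0.179). Its paralog cox4i2 was at 249 in P1 replicate 1, at 88.0 to 123 in the other P1 libraries, and at 75, 137 and 79.3 in P2 (-0.35 ± 0.38, adjusted p 0.558), and cox4i1l stayed at or below 6.35 (0.17 ± 0.48). Subunit VIb genes gave -0.75 ± 0.43 for cox6b2, at 496 to 1279 in P1, and -0.53 ± 0.35 for cox6b1, at 22.4 to 42.3 in P1. Near-identical paralogs may share reads, since the counting of such reads is not given in the sources used here.

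In complex V, 1 of 17 nuclear subunits was called lower, and 13 of 17 fold changes were below 0 with a median of -0.93. The called share was 5.88%, where 7.05% of all genes were called lower. At an unadjusted p under 0.05, 8 of the 17 were lower and 1 higher. By edgeR 1, by DESeq2 4 and by voom 0 were called lower. The called gene was atp5md, a small membrane subunit associated with dimers of the enzyme. It was at 148, 99.3, 165, 237 and 180 in P1 and 103, 72.1 and 55.0 in P2 (-1.09 ± 0.33, adjusted p 0.0449). P1 replicate 2 was below P2 replicate 1, and all other P1 libraries were above all P2 libraries. The small membrane subunit atp5meb was at 319 to 1007 in P1 and 186, 439 and 162 in P2 (-1.21 ± 0.43, adjusted p 0.074).

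The catalytic beta subunit atp5f1b went the other way in value. It was at 588, 908, 868, 458 and 926 in P1 and at 1459, 1740 and 1051 in P2. Every P2 library was above every P1 library, but the gene did not pass (0.94 ± 0.33, adjusted p 0.0724). Both c-ring genes of group 3 differed in value: atp5mc3b, the nuclear member of the complex with the most reads, was at 3146, 1008, 1556, 2875 and 1455 in P1 and 898, 2030 and 412 in P2 (-1.01 ± 0.51, adjusted p 0.192), while atp5mc3a was at 209 to 319 in P1 and 232, 451 and 179 in P2 (0.06 ± 0.33). The third c-ring gene atp5mc1 had -0.34 ± 0.33. Of the inhibitory factor genes, atp5if1b was at 537, 342, 270, 449 and 331 in P1 and 148, 344 and 86.1 in P2 (-1.19 ± 0.41, adjusted p 0.0663), and atp5if1a at 73.5 to 207 in P1 and 164, 203 and 72.0 in P2 (-0.10 ± 0.40). The count ratio of atp5if1b to atp5f1b was 0.311 to 0.979 in P1 and 0.101, 0.198 and 0.0819 in P2.

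A split within the complexes was seen after the values were known, and it is given as a description without a test. Nuclear subunits of complexes I and V were divided by textbook knowledge into core subunits, those with a counterpart in the bacterial enzyme, and supernumerary ones. In complex I the median log2 fold change was -0.17 over the 6 core subunits tested and -0.96 over the 28 supernumerary ones. In complex V the medians were -0.17 over 9 core subunits and -1.11 over 8 supernumerary ones, all 8 of which were below 0. The core and supernumerary medians moved with single libraries. Without P1 replicates 1 and 5 they were -0.32 and -0.56 in complex I and 0.02 and -0.64 in complex V. In complex V they were -0.61 and -1.44 without P2 replicate 2, and 0.27 and -0.74 without P2 replicate 4. The core subunits included exceptions, with atp5po, a stalk subunit, at -1.44 and ndufs3 at -1.09.

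Within each library the mean log2 level of the core subunits minus that of the supernumerary ones hardly depends on library scaling. For complex V this difference was 0.25, 0.64, 0.44, -0.59 and 0.52 in P1 and 1.06, 1.21 and 1.12 in P2, without overlap. In P2 the 3 libraries lay close together, P2 replicate 2 included, and P1 replicate 5 was lowest. For complex I it was -0.77, -0.09, 0.06, -1.05 and -0.13 in P1 and 0.33, -0.12 and 0.48 in P2, and P2 replicate 2 lay within the P1 range. P1 replicates 1 and 5, which had the largest member shares, were the lowest in both complexes.

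Single pairs of genes were chosen after their values were seen. Of these, only the pairs in complex V set a core subunit against a supernumerary one, since complexes II and III were not divided. The ratio of atp5f1b to atp5f1e, the epsilon subunit of the same catalytic head, was 0.344, 1.51, 1.16, 0.192 and 1.20 in P1 and 3.58, 2.04 and 4.67 in P2. The populations did not overlap in this ratio. They did overlap for another core subunit, atp5fa1, over atp5f1e, at 0.212 to 0.930 in P1 and 2.19, 0.716 and 2.69 in P2. In complex III, uqcrc1 over uqcrq was 0.245 to 1.25 in P1 and 1.16, 2.16 and 1.91 in P2. In complex II, sdhb over sdhc was 0.163 to 0.924 in P1 and 1.19, 0.873 and 1.18 in P2, both with a small overlap. The ratio of sdha to sdhc was 0.268 to 0.965 in P1 and 2.24, 0.463 and 1.08 in P2, with P2 replicate 2 inside the P1 range. Supernumerary subunits are often small proteins, and whether transcript length, RNA quality or library amplification moved with this split was not tested, since no gene lengths of the build were used.

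**Figure D4:**
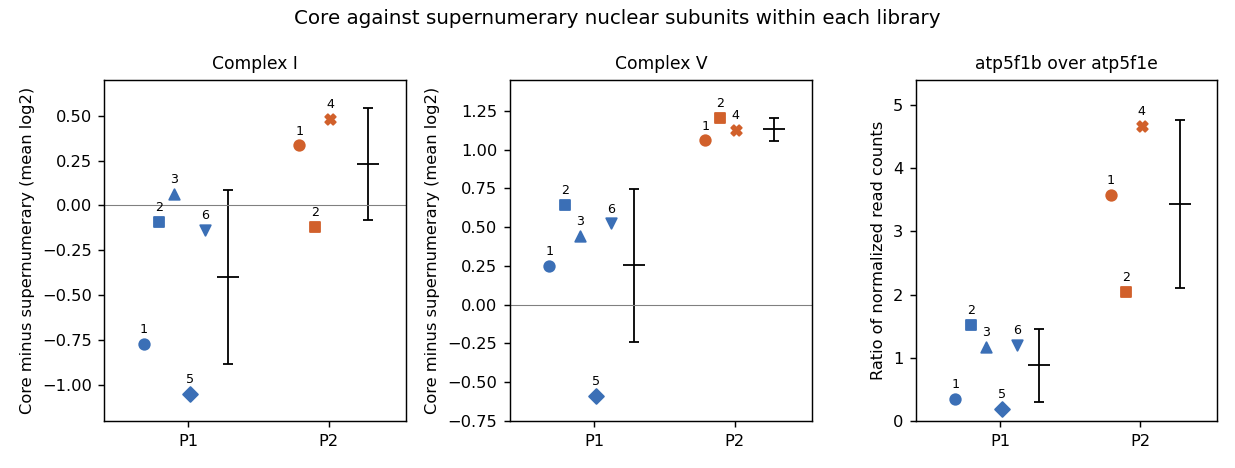
Mean log2(normalized read count + 1) of core minus supernumerary nuclear subunits in each library for complex I (left) and complex V (middle), and the atp5f1b to atp5f1e count ratio (right), with mean and SD as bars and points labelled by replicate. In complex V the P2 libraries lie from 1.06 to 1.21 and the P1 libraries from -0.59 to 0.64.

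The 13 mitochondrial members had 0 calls in the main test, with 4 lower at an unadjusted p under 0.05 (0 called by edgeR or voom, 3 by DESeq2, namely mt-atp6, mt-co3 and mt-nd3). In 10 of the 13, P2 replicates 1 and 4 were both below all P1 libraries, and in 10 P2 replicate 2 was inside the P1 range. No mitochondrial member had groups without overlap.

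Among the complex IV subunits encoded there, the catalytic subunit gene mt-co1 was at 32003, 27880, 22399, 25373 and 28153 in P1 and 17562, 42158 and 17072 in P2 (-0.21 ± 0.55, adjusted p 0.823). The copper-binding subunit gene mt-co2 was at 76079, 22927, 27166, 96581 and 34026 in P1 and 12971, 47739 and 7699 in P2 (-1.37 ± 0.75, adjusted p 0.23). For mt-co3 the levels were 19222, 7677, 15059, 22918 and 21271 in P1 and 6944, 9772 and 2448 in P2 (-1.55 ± 0.56, adjusted p 0.0793). P1 varied little in mt-co1 and over a wide range in mt-co2, where replicates 1 and 5 were far above the other P1 libraries. The mt-co1 to mt-co2 count ratio was 0.421, 1.22, 0.825, 0.263 and 0.827 in P1 and 1.35, 0.883 and 2.22 in P2, overlapping through P2 replicate 2.

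The ATP synthase gene mt-atp6 was at 5895, 3307, 5978, 10418 and 8173 in P1 and 2391, 5065 and 1028 in P2 (-1.44 ± 0.53, adjusted p 0.0821), and its neighbour mt-atp8 at 299 to 661 in P1 and 175, 553 and 143 in P2 (-0.80 ± 0.42, adjusted p 0.214). The apocytochrome b gene of complex III, mt-cyb, was at 21404, 16464, 9556, 27610 and 11373 in P1 and at 6538, 29872 and 5415 in P2 (-0.65 ± 0.63, adjusted p 0.503). P2 replicate 2 had the highest mt-cyb level of all 8 libraries and the other P2 libraries the lowest.

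Of the complex I genes, mt-nd3 was at 912, 337, 658, 1974 and 1634 in P1 and 403, 595 and 206 in P2 (-1.32 ± 0.53, adjusted p 0.111). The gene mt-nd1 was at 3731 to 11054 in P1 and 2237, 8370 and 1500 in P2 (-0.95 ± 0.56), mt-nd6 at 676 to 1622 in P1 and 702, 928 and 333 in P2 (-0.86 ± 0.39), and mt-nd2 at 1766 to 3799 in P1 and 1677, 2350 and 914 in P2 (-0.79 ± 0.39). Fold changes nearer 0 were found for mt-nd4 (-0.75 ± 0.42), mt-nd5 (-0.46 ± 0.37) and mt-nd4l (0.07 ± 0.29), whose adjusted p-values were 0.238, 0.425 and 0.899. With 100 to 174 normalized read counts in P1 and 131, 184 and 115 in P2, mt-nd4l had the fewest reads of the mitochondrial members. It neighbours mt-nd4, and reads on overlapping neighbours cannot be assigned with certainty.

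**Figure D5:**
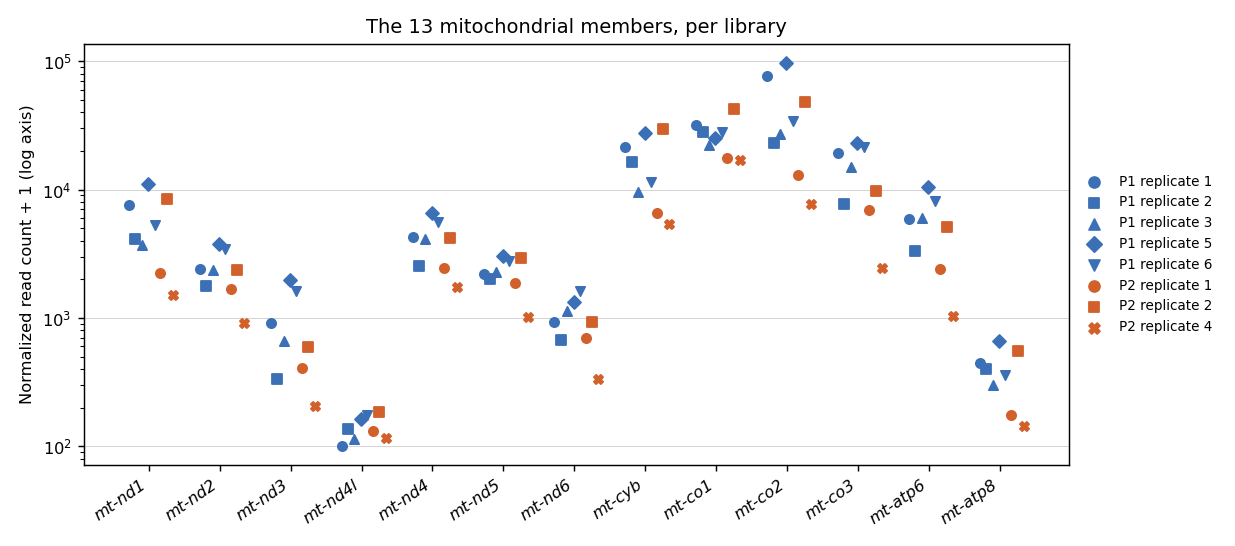
Normalized read count + 1 on a log axis for the 13 mitochondrial members in each P1 (blue) and P2 (orange) library, with 1 marker shape per replicate. P2 replicate 2 (orange square) is the highest P2 library in all 13 genes, and the 5 P1 libraries are closer together in mt-co1 than in mt-co2.

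Assembly factors named by the rule, which help build the complexes without being part of them, had 2 of 20 called lower, where 7.05% of all genes were. In this group 14 of 20 fold changes were below 0 and the median was -0.45. The copper chaperone cox17 was at 339, 212, 159, 563 and 224 in P1 and 49.9, 200 and 18.7 in P2. P2 replicate 2 lay inside the P1 range and the other P2 libraries far below it (-2.21 ± 0.61, adjusted p 0.0328). By edgeR cox17 had an adjusted p of 0.101, and its log2 fold change was -1.42 without P2 replicate 4 (adjusted p 0.155) and -3.10 without P2 replicate 2. The complex IV assembly factor cox14 was at 94.6, 55.4, 49.6, 165 and 59.2 in P1 and 34.3, 36.9 and 18.4 in P2, without overlap (-1.38 ± 0.42, adjusted p 0.0467). Both enzymes of heme A synthesis had positive values that did not pass, with 1.22 ± 0.46 for cox15 (adjusted p 0.0931) and 0.87 ± 0.39 for cox10 (adjusted p 0.15), named here after their values were seen. The supercomplex factor cox7a2l was at 78.2 to 245 in P1 and 53.3, 111 and 31.3 in P2 (-1.09 ± 0.45, adjusted p 0.119).

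Lists of neighbouring pathways were read in the same fit. Of 20 tested genes of the TCA cycle and pyruvate dehydrogenase, 0 were called by limma, edgeR, DESeq2 or voom (1 higher and 0 lower at an unadjusted p under 0.05) and the median was 0.23. Of 31 glycolysis genes, the pyruvate kinase gene pkma was higher (2.13 ± 0.62, adjusted p 0.0382) and the enolase gene eno2 lower (-2.52 ± 0.61, adjusted p 0.0181), with a median of 0.03. Of all genes tested, 7.57% were called higher and 7.05% lower. At an unadjusted p under 0.05, 3 glycolysis genes were higher and 6 lower. By edgeR 1 was called higher and 1 lower, by DESeq2 1 higher and 3 lower, and by voom 0. For pkma, the P1 levels were 43.8 to 153 and the P2 levels 284, 150 and 1520, so P2 replicate 4 stood far above the rest and the groups overlapped. Of 27 import and carrier genes, the import receptor tomm20a was higher, at 6.04 to 17.4 in P1 and 54.6, 27.5 and 51.5 in P2 (1.93 ± 0.44, adjusted p 0.0139), and the list median was 0.08. At an unadjusted p under 0.05, 4 of the import and carrier genes were higher and 3 lower. By edgeR and by voom 1 was called higher and 0 lower, and by DESeq2 1 higher and 2 lower.

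Mitochondrial ribosomal proteins, which translate the mitochondrial members, had 7 of 74 lower and 0 higher, with 60 below 0 and a median of -0.57. Over all genes 7.05% were called lower and 7.57% higher. At an unadjusted p under 0.05, 15 of these proteins were lower and 1 higher. By edgeR 7 were called lower, by DESeq2 11 and by voom 3. Those with the lowest p were mrpl17 (-1.90 ± 0.42, adjusted p 0.0119), mrpl35 (-1.72 ± 0.38, adjusted p 0.0124), mrpl42 (-1.83 ± 0.46, adjusted p 0.0228) and mrps21 (-1.51 ± 0.40, adjusted p 0.0268), all without overlap. Assembly factors outside the name rule had 3 of 24 lower, against the same 7.05% of all genes, and a median of -0.27. The 3 were the complex III factors uqcc3 (-1.61 ± 0.40) and lyrm7 (-1.73 ± 0.46) and the complex IV factor coa5 (-1.45 ± 0.42). At an unadjusted p under 0.05, 5 were lower, and edgeR called 2, DESeq2 4 and voom 1 lower. Among 10 nuclear regulators of mitochondria, ppargc1a, a coactivator of mitochondrial biogenesis, was lower, at 5.37 to 10.6 in P1 and 1.02, 2.20 and 0.585 in P2 (-1.86 ± 0.48, adjusted p 0.0244). In P2 replicates 1, 2 and 4, 3 reads correspond to 1.02, 0.826 and 0.878 normalized read counts. The P2 levels were thus near the floor, and ppargc1a met the filter only through P1. The median of these regulators was -0.04. At an unadjusted p under 0.05, 1 of them was lower and 3 were higher. By edgeR 1 was called lower, by DESeq2 1 lower and 1 higher, and by voom 0. In the lists of mitochondrial gene expression (19 tested, median 0.04) and of other electron carriers (8 tested, median 0.10), 0 were called by any of these tools, with 2 and 0 at an unadjusted p under 0.05.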

How the data were processed

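RNA of sorted P1 (5 libraries) and P2 (3 libraries) cells was sequenced single-end, and the authors mapped reads to GRCz11 with the nf-core rnaseq pipeline and Ensembl genes. Rules for shared or overlapping reads and strand are not given in the sources used here. The authors deposited a signal of read counts divided by 1 size factor per library, as DESeq2 does. Every value was a whole multiple of 1 read (tolerance 0.01, 100% of values), so reads were recovered. Totals of 7510312 to 13034333 reads set the precision of low genes. A larger deposited table holds 10 columns that match no sample, and 2 files hold the authors' own fold changes and p-values; these were not used.

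Genes with at least 10 reads in at least 3 libraries were fitted with limma 3.58.1 (R 4.3.3) on log2(normalized read count + 1) with a variance trend, with Benjamini-Hochberg adjustment across the genes tested. Fold changes on this scale understate those of low genes. On data simulated for this comparison, of genes changed by 1, 2 and 3 log2 units 7 of 66, 61 of 66 and 64 of 68 were called. The simulation gave every gene the same dispersion and no shift shared across a library, so these rates need not hold for the real libraries.

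Members and lists were chosen with earlier results of these data known. Selected for naming were all mitochondrial members, per complex the 3 nuclear subunits of lowest p and the one with most reads, all called members, isoforms of these groups, and up to 4 called genes of each other list. Outside this selection, and with their values known, cox10, cox15, sdha, sdhb, ndufs3, uqcrc1, uqcrc2a, uqcrc2b, uqcrfs1, atp5po, atp5fa1 and atp5f1e are also named. Alternatives were other scalings, pseudocounts (0.5 and 5) and filters, edgeR 4.0.16, DESeq2 1.42.0, voom, a replicate block and leaving out each library. Leaving out several libraries, or the mitochondrial rows, was chosen after seeing the data. No genome or sequence table of the build was used here.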

Additional observations from a re-analysis of the deposited data

Results flagged for a closer look

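In P1, whose 5 libraries allow the check, 3 of the measured values stood far from the others of their group. The level of cox4i2 was 249 normalized read counts in P1 replicate 1 and 88.0 to 123 in the other P1 libraries. The level of ndufa7 was 402 in P1 replicate 5 and 100 to 185 in the others, and its call was lost without that library (log2 fold change -1.50, adjusted p 0.0653) as well as without P1 replicate 1 (0.062), P2 replicate 1 (0.114) or P2 replicate 4 (0.163). The count ratio of mt-co1 to mt-co3 was 3.63 in P1 replicate 2 and 1.11 to 1.66 in the others. Each gap exceeded 0.71 of the range within the group, and chance alone gives such a gap in about 1 in 20 groups, over 83 values examined.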

How the results depend on the processing

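The count of members called lower in P2 changed most. It was 17 with sizes by median of ratios or TMM, 24 with total reads without mitochondrial rows, 26 by DESeq2, 6 by edgeR or with no low-count filter, 4 with no variance trend and 2 by voom. Lower calls over all genes moved too. They numbered 1302 in the main fit, 1483 by median of ratios, 1485 by TMM and 1380 with total reads without mitochondrial rows. By DESeq2 they numbered 2139, by edgeR 1042 and by voom 519. With no low-count filter there were 960, and with no variance trend 1190. Added after seeing the data, the member count was 18 with the mitochondrial rows removed, 19 without the libraries of high muscle marker level and 0 without P1 replicates 1 and 5. Lower calls over all genes were then 1499, 1498 and 513. Leaving out 1 library each gave 1 to 50 members lower and 0 to 1 higher. The cause was not tested. Calls over all genes were 2700, against 1601 by voom, 1741 with 10 reads in every library, 995 without P1 replicates 1 and 5, and 876 to 3992 with 1 library left out. Median of ratios moved the median of all genes by -0.12 and the share of calls that were higher from 51.8% to 39.9%. The mitochondrial to nuclear read difference was -1.16 to -0.28 with 1 library left out.

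Replicate numbers 1 and 2 occur in both populations, and the titles of these pairs share a further number that no label explains. Their deviations correlated at 0.00 and -0.13, over only 2 pairs, and they were not taken as pairs. On these 4 libraries the fit with the replicate block called 0 members (4 lower at an unadjusted p under 0.05) and 454 genes, and that without it 0 members (5 lower) and 199 genes, with medians of -0.50 for nuclear and -0.18 for mitochondrial members in both. In replicate 2 the member shares were higher in P2 than in P1 in both genomes (5.20% against 3.74%, 1.08% against 0.906%).

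Over 1228 values of the members in the stated selection under alternatives, 115 calls were lost, 49 gained and 0 called values reversed, while 32 uncalled values changed sign. Members named outside that selection are not among these values. Depth limits genes at a few reads, such as cox6a2 and cox5b2.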
